A study of Homo sapiens with 12 samples.

Results

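The genes described are 10 that belong to the YAP and TEAD branch of the Hippo pathway: CCN1, CCN2, ANKRD1, AMOTL1, AMOTL2, AXL, LATS2, AJUBA, TEAD1 and YAP1. The rule takes them by name and sets no threshold on their values, and they were named with earlier results of these data known. All 10 were listed in both tables of the series, out of 16633 genes listed in at least 1 table and 15459 listed in both, and all 10 passed the filter on low values (a mean of at least 10 normalized counts). RNA was taken from HT1080, a line grown from a human fibrosarcoma, with the genotype labelled wild type and after growth in biotin-depleted, low-serum medium. In the PMA experiment, 3 libraries of cells given 40 nM phorbol ester PMA for 24 h stood against 3 untreated control libraries (Control 1 to 3). In the ConA experiment, 3 libraries of cells given 40 µg/mL of the lectin concanavalin A (ConA) for 24 h stood against 3 untreated controls of its own (Control 4 to 6). Each agent was used at 1 dose and 1 time in 1 cell line, and each table was normalized on its own. A gap between the agents and a gap between the experiments therefore cannot be told apart, and changes were taken within a table. Nothing says that the libraries of a group came from separate cultures, so the p-values measure the spread between these libraries, which may be technical. With 3 libraries a side, the smallest p of an exact permutation test is 0.1, and the p-values below come from limma, fitted across all genes.

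In the Hippo pathway, the kinases MST1 and MST2 activate the kinases LATS1 and LATS2, which phosphorylate the coactivators YAP and TAZ and hold them in the cytoplasm. When this brake is off, YAP and TAZ enter the nucleus, bind the TEAD transcription factors and switch on genes for matrix-associated proteins, cytoskeletal regulators and growth. Several of those targets, such as LATS2, AMOTL2 and AJUBA, code for proteins that act back on the pathway. PMA is a known activator of protein kinase C, and ConA binds mannose and glucose residues of glycoproteins at the cell surface.

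The libraries held between 33636340 and 45593389 estimated reads on genes. All 8 of 8 mesenchymal markers (among them VIM, FN1, SPARC and CD44) were listed in both tables, and their summed level was 657427 to 663379 normalized counts in the PMA controls, 684283 to 710575 with PMA, 826688 to 890741 in the ConA controls and 626031 to 687796 with ConA. Of the epithelial markers, 1 of 6 was listed in the PMA table and 4 of 6 in the ConA table, with a summed level of at most 197.3. Of the leukocyte markers, 7 of 10 were listed in the PMA table and 4 of 10 in the ConA table. Their summed level was 5447 to 5898 in the PMA controls, 7714 to 8247 with PMA, 5857 to 6286 in the ConA controls and 17343 to 20546 with ConA, and most of it was CD68, a lysosomal protein that many cells make. The cells are labelled fibrosarcoma, yet leukocyte genes besides CD68 had values. In the PMA table, the controls and the PMA libraries stood at 176.03 to 187.2 and 168.3 to 328.1 for PTPRC, 109.7 to 125.2 and 176.5 to 233.5 for CD3E, 78.7 to 88.5 and 73.1 to 140.1 for CD3D, 58.7 to 89.4 and 72.0 to 136.5 for CD2, 27.1 to 39.3 and 31.4 to 44.3 for ITGAM, and 5.53 to 15.3 and 1.16 to 4.75 for LYZ. CD3E was higher and LYZ lower in every PMA library than in every control, and the groups overlapped for the other 4. In the ConA table PTPRC, CD3E and CD2 were not listed, while the controls and the ConA libraries stood at 21.9 to 31.02 and 21.6 to 26.1 for CD3D, 78.1 to 109.1 and 89.9 to 144.2 for LYZ, and 1.04 to 7.01 and 20.7 to 35.5 for ITGAM. Of the endothelial markers, 4 of 6 were listed in each table, and their summed level, most of it TIE1, was 2529 to 2694 in the PMA controls, 4562 to 4807 with PMA, 2959 to 3314 in the ConA controls and 3083 to 3499 with ConA. The part of these transcripts in the results below was not tested, and in bulk RNA a different mix of cells and a different amount of RNA per cell cannot be told apart.

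With PMA, 8 of the 10 genes rose and 1 fell. CCN1, CCN2 and ANKRD1 rose more than 2-fold, AMOTL2 and LATS2 followed, and AJUBA was the gene that fell. With ConA, 6 rose and 1 fell: ANKRD1 and AMOTL2 rose most, CCN1 stood at 1.09 times its control level, and CCN2 was lower than in the controls. A gene is said here to have risen or fallen where its adjusted p was 0.05 or lower (limma, Benjamini-Hochberg over all genes tested), and to be called when its change was also at least 2-fold and its adjusted p no higher than 0.0001.

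Measured against all genes, PMA gave 3 called members higher, where 4.03% of the 15153 genes tested were called higher, and 0 called lower, where 4.61% were. At this adjusted p of 0.05 the members that rose were 8 and the member that fell was 1, beside 32.8% and 30.5% of all genes. The treated libraries lay wholly above the controls for 8 members and wholly below for 2, beside 34.8% and 33.1% of all genes. The direction of the call background depended on the scaling: of all genes called with PMA, 46.6% were higher, and 36.5% when every library was scaled to the same total. ConA gave 1 called member higher, beside 5.83% of 15139 genes, and 0 lower, beside 2.88%. At the adjusted p of 0.05 it gave 6 that rose and 1 that fell, beside 32.8% and 32.5%, and 8 members whose libraries lay wholly above the controls and 1 wholly below, beside 34.9% and 34.4%. The median log2 fold change of the 10 genes was 0.61 with PMA and 0.22 with ConA, where the medians of all genes tested were 0.0029 and -0.0022. About 1 gene in 3 passed the looser rule in each direction, so the passing of a single member under that rule sets it apart from few genes.

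**Figure D1:**
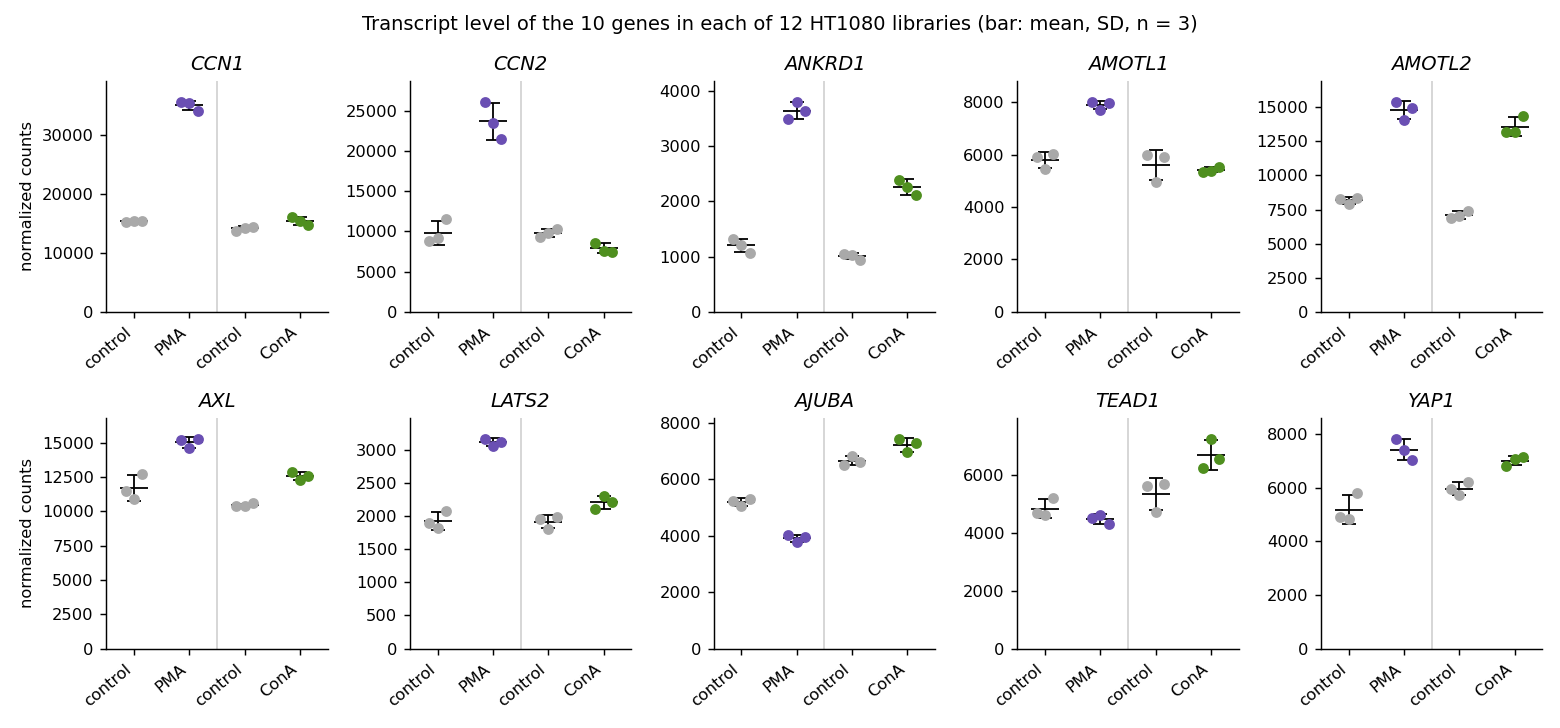
Normalized counts (vertical axis, from 0) of each of the 10 genes in the 12 libraries, by group (horizontal axis), with the mean and SD of the 3 libraries of each group as bars; a grey line separates the PMA experiment from the ConA experiment. For CCN1 the lowest PMA library lies at 34116 and the highest of its controls at 15402. For AMOTL2 the PMA libraries start at 14088 and their controls end at 8374, and the ConA libraries start at 13183 and their controls end at 7413.

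CCN1 and CCN2 code for secreted proteins of the extracellular matrix that bind integrins, and they are among the best known YAP targets. CCN1 stood at 15262, 15402 and 15361 normalized counts in the PMA controls and at 35598, 35394 and 34116 with PMA. The 2 groups were far apart, and the spread within each was small. The change was 1.19 on the log2 scale of (value + 1), or 2.28-fold (SE 0.036, 95% interval 1.11 to 1.27, adjusted p = 2.28e-10 in limma). In the ConA experiment CCN1 stood at 13806, 14243 and 14473 in the controls and at 16164, 15392 and 14788 with ConA. All 3 treated libraries lay above all 3 controls, but by little. The change of 0.12 (95% interval 0.011 to 0.24) had an adjusted p of 0.0511 in limma, just outside 0.05, and it came to 0.19 with an adjusted p of 0.00391 when libraries were scaled to equal totals. It also passed 0.05 after quantile normalization (0.17, adjusted p = 0.0067) and in one fit of all 12 libraries (adjusted p = 0.0179). The same held with a minimum mean of 50 (adjusted p = 0.0482) and without ConA library 3 (0.15, adjusted p = 0.0457). It did not pass under the other settings, where the adjusted p in limma was up to 0.170.

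CCN2 stood at 8797, 9159 and 11546 normalized counts in the PMA controls and at 26077, 23456 and 21485 with PMA. Control 3 was the highest of the controls, and the lowest PMA library still lay well above it. The change was 1.27, or 2.42-fold (95% interval 1.07 to 1.48, adjusted p = 4.07e-07 in limma). Its call was lost, with an adjusted p of 5.13e-04, when the variance was not modelled as a trend over the level. In the ConA experiment CCN2 stood at 9301, 9819 and 10352 in the controls and at 8611, 7587 and 7472 with ConA, all 3 treated libraries below all 3 controls. CCN2 fell by 0.32 on the log2 scale (95% interval -0.45 to -0.18, adjusted p = 5.03e-04 in limma), and it was the only one of the 10 genes that rose with one agent and fell with the other while passing the test in both.

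The TEAD factors bind the letters GGAATG, or CATTCC when read on the other strand, and these letters were searched on both strands in the 250 bases before each annotated transcript start, taken from RefSeq on GRCh38.p14. At least 1 match stood in 11.9% of 35116 such windows, at least 2 in 0.94% and at least 3 in 0.0826%. Windows were at hand for 8 of the 10 genes, not for CCN1 and TEAD1. CCN2 held 3 matches, more than any other member. Its window, chr6:131951373-131951622 on the minus strand, and that of ANKRD1, chr10:90921088-90921337 on the minus strand, are shown because these genes had the largest changes among those with a window, with the letters of the TEAD motif in capitals:
CCN2: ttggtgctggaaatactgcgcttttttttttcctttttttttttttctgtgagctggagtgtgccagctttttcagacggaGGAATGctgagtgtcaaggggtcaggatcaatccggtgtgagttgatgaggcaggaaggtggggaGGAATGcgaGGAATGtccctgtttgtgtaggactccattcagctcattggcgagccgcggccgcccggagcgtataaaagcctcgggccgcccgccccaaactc
ANKRD1: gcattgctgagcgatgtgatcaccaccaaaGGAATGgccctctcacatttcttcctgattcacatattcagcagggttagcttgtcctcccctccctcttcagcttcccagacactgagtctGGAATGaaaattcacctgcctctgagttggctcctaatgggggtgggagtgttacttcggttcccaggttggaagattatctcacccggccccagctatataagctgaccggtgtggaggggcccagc

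In the CCN2 window the matches began 169, 104 and 95 bases before the start, and the last 2 of them were separated by 3 bases. In the ANKRD1 window they began 220 and 128 bases before the start. The ANKRD1 window also held 1 match of TGANTCA, a loose form of the AP-1 letters in which N is any base, here T. It is in lower case, began 195 bases before the start and overlapped neither TEAD match. Such a match stood in 6.57% of all windows and in no other member with a window. AP-1 is a factor of the FOS and JUN families, and any part of it in the change of ANKRD1 was not tested. A match of letters is a description of the sequence, and binding was not measured.

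ANKRD1 codes for a nuclear ankyrin repeat protein first known from heart muscle. It stood at 1318, 1212 and 1073 normalized counts in the PMA controls and at 3483, 3794 and 3629 with PMA. The treated group was about 3 times as high, with no overlap. The change was 1.60, or 3.03-fold (SE 0.068, 95% interval 1.45 to 1.75, adjusted p = 3.56e-09 in limma), above that of 97.7% of the genes tested. In the ConA experiment it stood at 1038, 1031 and 943.6 in the controls and at 2391, 2260 and 2113 with ConA. Here too the groups were apart, and ANKRD1 was the only member called with both agents. The change with ConA was 1.17, or 2.24-fold (95% interval 1.02 to 1.31, adjusted p = 2.36e-09 in limma).

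**Figure D2:**
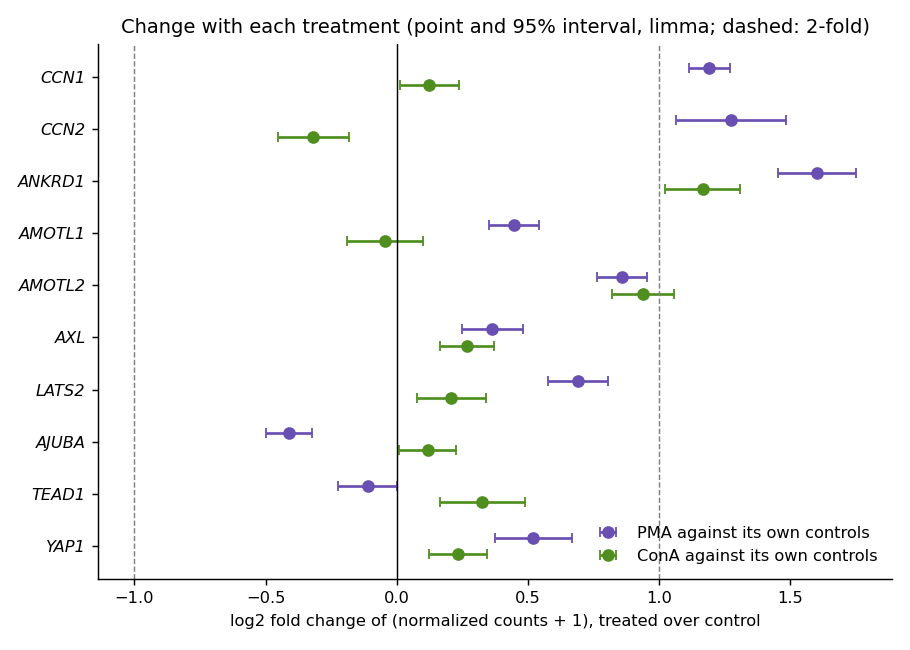
Log2 fold change of (normalized counts + 1), treated over own control (horizontal axis), for each of the 10 genes (vertical axis); points are limma estimates and bars their 95% intervals, and the dashed lines mark 2-fold. CCN1 and CCN2 show the widest gap between the experiments, at 1.19 against 0.12 and 1.27 against -0.32, and the intervals of AMOTL2 and AXL overlap.

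AMOTL1 and AMOTL2 code for motins, scaffold proteins of cell junctions that hold YAP in the cytoplasm and aid LATS kinases. AMOTL2 stood at 8240, 7897 and 8374 normalized counts in the PMA controls and at 15384, 14088 and 14977 with PMA. It stood at 6857, 7015 and 7413 in the ConA controls and at 13214, 13183 and 14369 with ConA. In both experiments the treated libraries were nearly double the controls, with no overlap. The changes were 0.86 with PMA (95% interval 0.76 to 0.95, adjusted p = 1.33e-08) and 0.94 with ConA (95% interval 0.82 to 1.05, adjusted p = 3.23e-09) in limma, and both fell short of the 2-fold rule. With ConA it reached 1.00 and was called when libraries were scaled to equal totals.

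AMOTL1, the paralog, stood at 5919, 5455 and 6007 in the PMA controls and at 8006, 7706 and 7952 with PMA. It rose by 0.45 (95% interval 0.35 to 0.54, adjusted p = 4.24e-06 in limma), less than AMOTL2. With ConA it stood at 5982, 4957 and 5911 in the controls and at 5355, 5379 and 5547 in the treated libraries, which fell between the lowest and the highest control. The change of -0.04 (95% interval -0.19 to 0.10, adjusted p = 0.580 in limma) did not pass. Control 5, the lowest of the group, set much of this value: without it the change was -0.13 with an adjusted p of 0.0441, and without Control 4 it was 0.0035. AMOTL1 was the one gene of the 10 whose libraries overlapped between treated and control.

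AMOTL2 and YAP1 each held 1 TEAD match, and AMOTL1 and LATS2 held none in these windows. AMOTL2 has a pair of annotated starts with a window each, and the match lay in the second, chr3:134374448-134374697 on the minus strand, beginning 69 bases before the start. The YAP1 window is chr11:102110197-102110446 on the plus strand, with its match beginning 162 bases before the start. They are shown with the same letters in capitals, as examples of members with 1 match that rose with both agents:
AMOTL2: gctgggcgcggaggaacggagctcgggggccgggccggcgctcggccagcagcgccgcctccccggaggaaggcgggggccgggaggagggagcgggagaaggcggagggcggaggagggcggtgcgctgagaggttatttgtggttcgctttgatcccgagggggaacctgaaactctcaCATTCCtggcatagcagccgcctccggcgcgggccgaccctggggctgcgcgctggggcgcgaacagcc
YAP1: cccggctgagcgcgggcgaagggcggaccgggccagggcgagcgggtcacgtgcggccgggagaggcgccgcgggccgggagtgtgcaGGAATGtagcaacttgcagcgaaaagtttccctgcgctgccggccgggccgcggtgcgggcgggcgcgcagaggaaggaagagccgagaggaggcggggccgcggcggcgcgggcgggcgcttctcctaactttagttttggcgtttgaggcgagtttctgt

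The second windows of AXL and AJUBA held 1 match each, beginning 212 and 59 bases before the start. AXL rose with both agents too, while AJUBA fell with PMA. Without a match, LATS2 rose with both agents and AMOTL1 rose with PMA. In all, 6 of the 8 members with a window and 6 of 11 windows held the letters. The members were chosen as genes of the YAP and TEAD branch, many of them known targets of these factors, so this count is a description and no test was made of it.

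**Figure D3:**
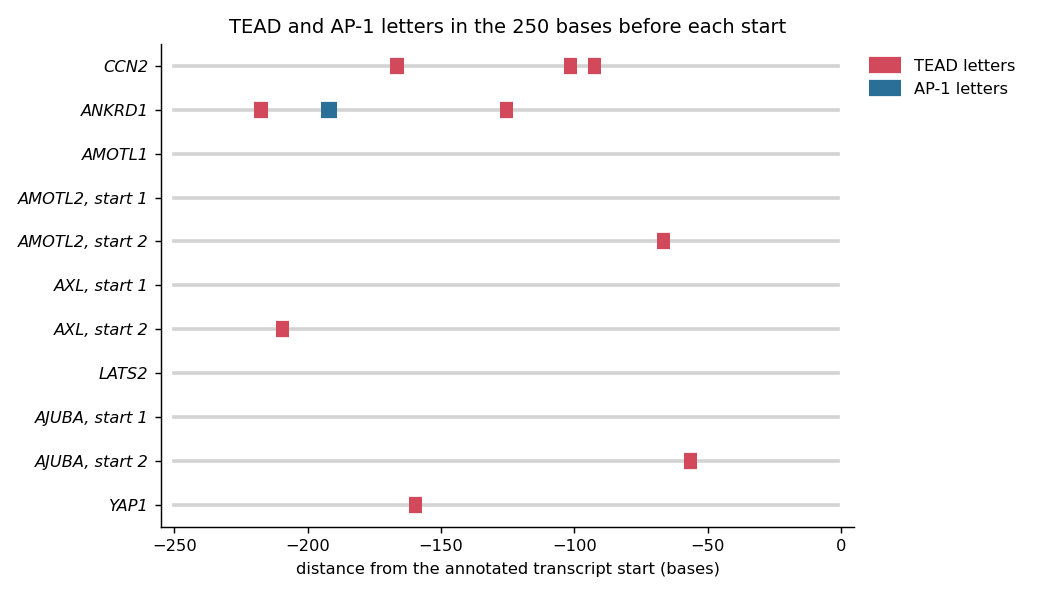
Places of the TEAD letters (GGAATG or CATTCC) and the AP-1 letters (TGANTCA, where N is any base) in the 250 bases before each annotated start (horizontal axis, distance from the start in bases) for the 11 windows of 8 genes (vertical axis). CCN2 holds 3 TEAD matches and ANKRD1 holds 2 with 1 AP-1 match between them, while AMOTL1 and LATS2 hold none.

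LATS2 codes for a kinase that phosphorylates YAP and is itself a target of YAP. It stood at 1888, 1823 and 2083 normalized counts in the PMA controls and at 3167, 3054 and 3121 with PMA, with every treated library above every control. It rose by 0.69 (95% interval 0.58 to 0.81, adjusted p = 4.48e-07 in limma). In the ConA experiment LATS2 stood at 1953, 1799 and 1985 in the controls and at 2107, 2303 and 2217 with ConA. The groups were apart there too, but close, and the rise was 0.21 (95% interval 0.078 to 0.34, adjusted p = 0.00782 in limma).

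AJUBA codes for a LIM domain protein that binds and restrains LATS kinases. It stood at 5248, 5052 and 5299 in the PMA controls and at 4017, 3769 and 3943 with PMA. All treated libraries were below all controls, and AJUBA fell by 0.41 on the log2 scale (95% interval -0.50 to -0.32, adjusted p = 4.21e-06 in limma). With ConA the values were 6520, 6831 and 6636 in the controls and 7446, 6959 and 7291 in the treated libraries. The treated libraries lay above the controls, yet the change of 0.12 (95% interval 0.0095 to 0.23) had an adjusted p of 0.0533 in limma. It passed 0.05 without Control 5 (0.14, adjusted p = 0.0440) or without ConA library 2 (0.15, adjusted p = 0.0431), and with equal totals (0.18, adjusted p = 0.00398).

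AXL codes for a receptor tyrosine kinase of the TAM family, whose ligand is GAS6. It stood at 11502, 10868 and 12690 in the PMA controls and at 15196, 14576 and 15280 with PMA. It stood at 10365, 10377 and 10571 in the ConA controls and at 12874, 12246 and 12578 with ConA. The rises were small in both experiments, with no overlap in either: 0.36 with PMA (95% interval 0.25 to 0.48, adjusted p = 1.07e-04) and 0.27 with ConA (95% interval 0.16 to 0.37, adjusted p = 2.29e-04) in limma.

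YAP1 codes for the coactivator itself. Its transcript stood at 4903, 4852 and 5806 normalized counts in the PMA controls and at 7827, 7403 and 7025 with PMA, and it rose by 0.52 (95% interval 0.37 to 0.67, adjusted p = 3.90e-05 in limma). In the ConA experiment it stood at 5949, 5722 and 6226 in the controls and at 6820, 7087 and 7137 with ConA. YAP1 was higher in every treated library than in every control of its table, and the rise with ConA was 0.23 (95% interval 0.12 to 0.35, adjusted p = 0.00118 in limma). YAP is controlled largely by phosphorylation and place in the cell, which transcript levels do not show.

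TEAD1 codes for one of the DNA-binding partners of YAP. It stood at 4684, 4624 and 5212 in the PMA controls and at 4510, 4623 and 4302 with PMA, so that the highest PMA library lay just under the lowest control. The change of -0.11 (95% interval -0.22 to 0.0020, adjusted p = 0.0796 in limma) did not pass. It passed 0.05 after quantile normalization (-0.25, adjusted p = 0.00104), with equal totals (-0.23, adjusted p = 0.00246) and without Control 2 (-0.14, adjusted p = 0.0447). With ConA, TEAD1 stood at 5636, 4707 and 5677 in the controls and at 6242, 7256 and 6550 in the treated libraries, above all controls. That rise was 0.33 (95% interval 0.16 to 0.49, adjusted p = 0.00163 in limma).

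Whether the changes differ was tested in one limma fit of all 12 libraries, by subtracting the ConA change from the PMA change. Since each agent was used in its own experiment, this difference holds between the experiments, and the part of the agent cannot be told apart. Of the 10 genes, 2 were called higher (CCN1 and CCN2), beside 3.67% of 15030 genes, and 0 lower, beside 6.89%. Of all genes called here 34.7% were higher, and 19.2% with equal totals. At the adjusted p of 0.05, 6 changed more upward with PMA and 2 more upward with ConA, beside 30.4% and 30.7% of all genes. The median of the 10 differences was 0.36, where that of all genes was -0.010. CCN2 had the largest difference, at 1.59 (95% interval 1.33 to 1.85, adjusted p = 7.41e-09). The difference for CCN1 was 1.07 (95% interval 0.94 to 1.20, adjusted p = 1.04e-10). It stayed far past 0.05 but came to 0.76 after quantile normalization and 0.88 with equal totals, under the 2-fold rule.

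ANKRD1, called with both agents, still differed by 0.44 (95% interval 0.23 to 0.64, adjusted p = 0.00105 in limma). LATS2 differed by 0.48 (adjusted p = 5.79e-05) and AMOTL1 by 0.49 (adjusted p = 9.58e-05) in limma. In the other direction, the difference was -0.53 for AJUBA (adjusted p = 1.06e-06) and -0.44 for TEAD1 (adjusted p = 0.00118) in limma. These were the 2 members past 0.05 in that direction. YAP1 differed by 0.29 (adjusted p = 0.00941 in limma), which did not pass after quantile normalization (0.14, adjusted p = 0.151) or with equal totals (0.097, adjusted p = 0.364).

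For AMOTL2 and AXL no difference between the experiments was shown. The difference for AMOTL2 was -0.08, with a 95% interval from -0.23 to 0.068 (adjusted p = 0.341 in limma), and it passed 0.05 after quantile normalization (-0.32, adjusted p = 5.49e-04) and with equal totals (-0.27, adjusted p = 0.00265). The difference for AXL was 0.10, with a 95% interval from -0.053 to 0.25 (adjusted p = 0.250 in limma), its sign turned under the same 2 settings (-0.095 and -0.092), and it was 0.16 with an adjusted p of 0.0334 without Control 3 of the PMA experiment.

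**Figure D4:**
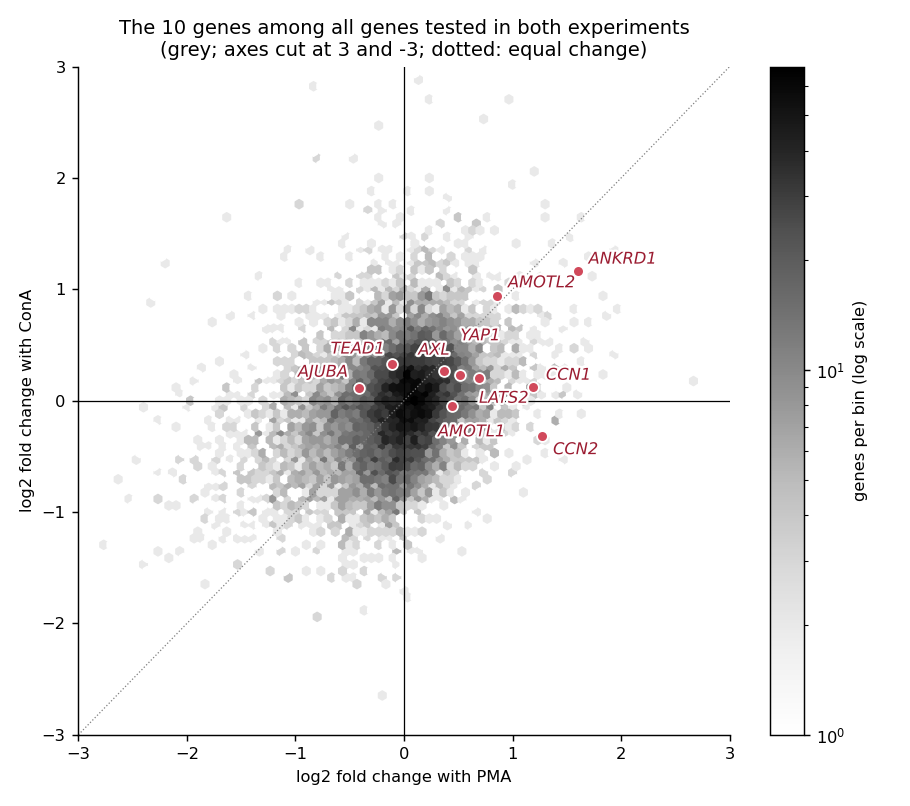
Log2 fold change with PMA (horizontal axis) against that with ConA (vertical axis) for all genes tested in both experiments, as grey bins whose shade gives the number of genes on a log scale, with the 10 genes as red points; the axes end at 3 and -3 and the dotted line marks equal change. AMOTL2 (0.86 and 0.94) and AXL (0.36 and 0.27) lie nearest the dotted line, CCN1 and CCN2 farthest to its right, ANKRD1 (1.60 and 1.17) less far to its right, and AJUBA and TEAD1 to its left.

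Levels of different genes were compared only after division by the length of their merged exons, as normalized counts per kb. In the PMA controls CCN1 was the highest of the 10, at 6665 to 6726 per kb, followed by CCN2 at 3761 to 4936, AXL at 2220 to 2592, AMOTL2 at 1652 to 1752, AJUBA at 1058 to 1110 and YAP1 at 862 to 1031. Below them stood AMOTL1 at 606 to 667, ANKRD1 at 542 to 666 and TEAD1 at 499 to 562, of which AMOTL1 overlapped ANKRD1 and ANKRD1 overlapped TEAD1, and LATS2 was last at 331 to 378. With PMA, ANKRD1 reached 1760 to 1917 per kb and passed AJUBA, YAP1 and AMOTL1, and AMOTL2 (2947 to 3218) came level with AXL (2978 to 3122). With ConA, ANKRD1 stood at 1068 to 1208 per kb, just under YAP1 at 1211 to 1268. CCN1 (6457 to 7058) and CCN2 (3195 to 3682) kept the highest levels there.

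The rest of the pathway was described from lists of its other genes. Of 22 Hippo kinases and adaptors, 14 rose and 5 fell with PMA and 9 rose and 4 fell with ConA, beside 32.8% and 30.5% of all genes with PMA and 32.8% and 32.5% with ConA. The median log2 fold changes were 0.32 and 0.13. Called among them with PMA were 3 higher and 1 lower, and with ConA 1 higher and 1 lower, beside 4.03% and 4.61% of all genes with PMA and 5.83% and 2.88% with ConA. FRMD6, a FERM domain protein that acts upstream of the kinases, went from 3811 ± 90.7 to 10690 ± 133 normalized counts in PMA (SD, n = 3; log2 fold change 1.49, adjusted p = 3.79e-11 in limma). With ConA it changed by 0.08 (adjusted p = 0.200), and the difference between the changes, 1.41, was called (adjusted p = 3.60e-12 in limma). TAOK3, a kinase of the family that can phosphorylate MST kinases, rose by 1.20 with PMA and 0.34 with ConA. WWC1, which codes for the LATS-binding scaffold KIBRA, was called with both agents, at 1.18 with PMA and 1.13 with ConA.

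FAT1 and FAT4, giant cadherins at the top of the pathway, were the genes of this list called lower. FAT4 went from 369.6 ± 46.5 to 66.4 ± 11.0 normalized counts in PMA (SD, n = 3; log2 fold change -2.46, adjusted p = 4.10e-08 in limma) and changed by -0.86 with ConA. FAT1 went from 13813 ± 2167 to 6477 ± 364 with ConA (SD, n = 3; log2 fold change -1.08, adjusted p = 1.51e-07 in limma) and changed by 0.30 with PMA. The difference between the changes was called for both, at 1.39 for FAT1 and -1.60 for FAT4. Without the variance trend, the call of FAT1 with ConA (adjusted p = 7.30e-04 in limma) and that of the FAT4 difference (adjusted p = 1.04e-04) were lost.

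Of the coactivator and TEAD partners (WWTR1, the other TEAD genes and the VGLL genes), 4 of 6 tested rose and 2 fell with PMA, and 2 of 7 rose and 1 fell with ConA, again beside 32.8% and 30.5% of all genes with PMA and 32.8% and 32.5% with ConA. The counts with ConA are near those shares. VGLL1 was not tested in either, nor VGLL2 with PMA. WWTR1, which codes for TAZ, the sister of YAP, moved against YAP1. It went from 16249 ± 910 to 7541 ± 148 normalized counts in PMA (SD, n = 3), and its log2 fold change of -1.11 (adjusted p = 2.19e-09 in limma) was called. With ConA it went from 20099 ± 252 to 13363 ± 412, a change of -0.59 (adjusted p = 1.48e-07 in limma). VGLL3, a TEAD cofactor, rose from 93.5 ± 18.2 to 350.4 ± 7.64 with PMA (SD, n = 3; log2 fold change 1.91, adjusted p = 1.90e-07 in limma), and this call was lost without the variance trend (adjusted p = 1.40e-04). With ConA VGLL3 rose from 74.9 ± 18.2 to 137.9 ± 12.3 and was not called (log2 fold change 0.90, adjusted p = 4.69e-04 in limma).

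Of 16 further YAP and TAZ targets, 8 rose and 3 fell with PMA, and 8 rose and 4 fell with ConA, with medians of 0.42 and 0.22, beside the same shares of all genes. Called among them were 1 higher and 1 lower with PMA, and 2 higher and 1 lower with ConA, where 4.03% and 4.61% of all genes were called with PMA and 5.83% and 2.88% with ConA. NUAK2, a kinase of the AMPK family, was called with both agents, going from 205.2 ± 18.9 to 504.8 ± 3.07 with PMA and from 139.9 ± 5.32 to 738.9 ± 60.1 with ConA (SD, n = 3). Its log2 fold changes were 1.30 and 2.39, so unlike CCN1 and CCN2 it changed more with ConA (difference -1.09, adjusted p = 6.85e-07 in limma, and -0.86 after quantile normalization). TGFB2, a TGF-beta ligand, was called lower with PMA (-1.56) and changed by -0.40 with ConA. NT5E, the ecto-5'-nucleotidase CD73, was called higher with ConA (2.98) from a control level of 6.48 ± 3.45 normalized counts, and without ConA library 3 its adjusted p of 1.12e-04 missed the rule, as did that of 8.22e-04 without the variance trend. PTPN14, a phosphatase that binds YAP, was called lower with ConA at -1.03, close to the 2-fold line. With ConA it came to -0.98 without Control 4, -0.98 without Control 6 and -0.99 without ConA library 3, short of the rule. It also missed the rule after quantile normalization (-0.98), with equal totals (-0.96) and without the variance trend (adjusted p = 3.02e-04 in limma). With PMA it was -0.96. It was called there after quantile normalization (-1.15), with equal totals (-1.08), without Control 1 (-1.01) and without Control 2 (-1.01). The difference between the changes was 0.068 (adjusted p = 0.626 in limma).

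Of the other CCN genes, CCN3 and CCN4 were tested, and CCN5 and CCN6 were not. At the adjusted p of 0.05, 0 rose and 2 fell with PMA, and 1 rose and 0 fell with ConA. CCN4 fell by 0.78 on the log2 scale with PMA (adjusted p = 0.0101 in limma) and changed by -0.12 with ConA (adjusted p = 0.438). CCN3, a secreted relative of CCN1 and CCN2 known for opposing CCN2, moved opposite to CCN2 with both agents. It went from 308.3 ± 19.7 to 81.4 ± 9.15 normalized counts with PMA and from 345.9 ± 22.9 to 832.3 ± 29.2 with ConA (SD, n = 3). The log2 fold changes were -1.91 (adjusted p = 6.10e-08) and 1.27 (adjusted p = 6.23e-09), and the difference between the changes was -3.18 (adjusted p = 1.33e-12) in limma. Of the 4 AXL relatives and ligands, none was called with either agent, and at the adjusted p of 0.05 in limma 2 rose and 1 fell with PMA and 1 rose and 2 fell with ConA. Of all genes, 32.8% rose and 30.5% fell with PMA, and 32.8% and 32.5% with ConA.

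**Figure D5:**
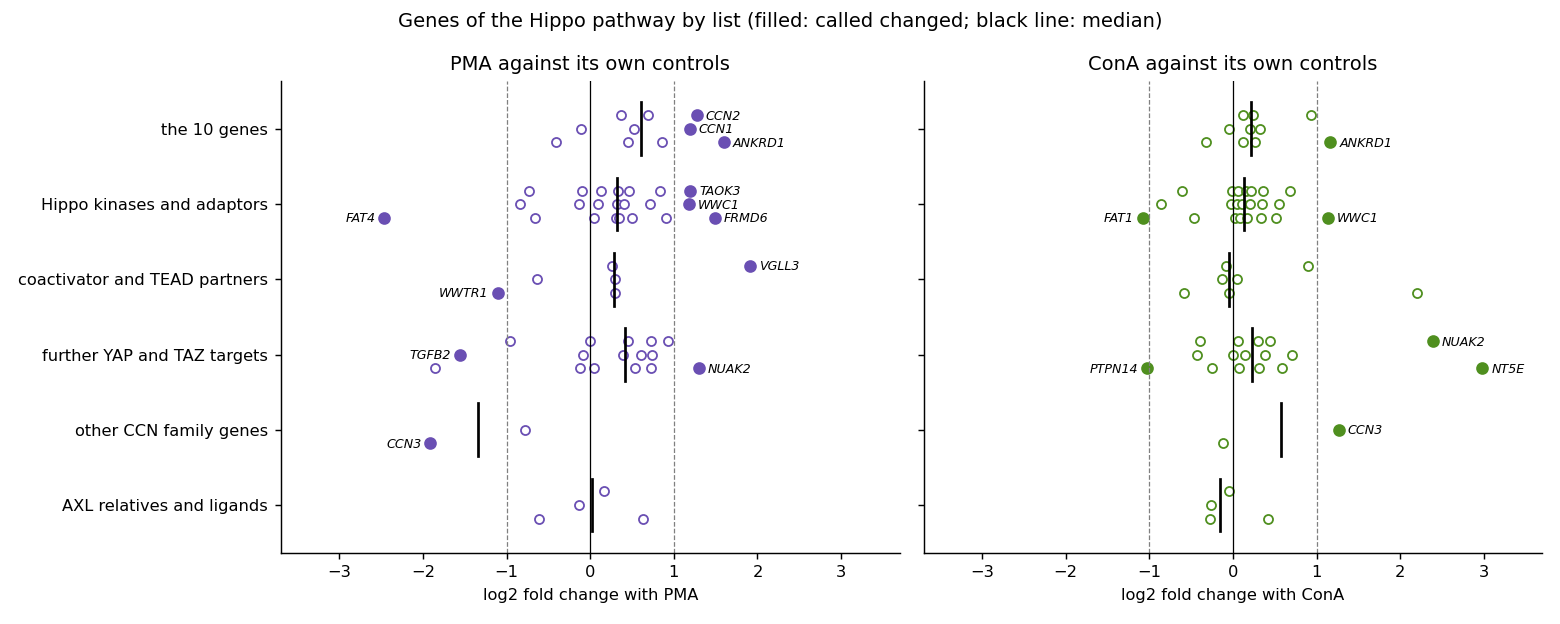
Log2 fold change with PMA (left) and with ConA (right), each against its own controls, for the tested genes of each list (vertical axis); filled points are called genes, a black line is the median of the list, and dashed lines mark 2-fold. The median of the 10 genes is 0.61 with PMA and 0.22 with ConA, and CCN3 lies at -1.91 on the left and 1.27 on the right.

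The genes whose pattern was most like those of CCN1, CCN2 and ANKRD1 were found by Pearson's r of log2(value + 1), centred on the control mean of the own table, over the 12 libraries and 14660 genes. This r mostly reflects the 2 group changes, since the libraries fall into groups, and it is given as a measure of likeness only. For CCN1 they were TM4SF19-TCTEX1D2 (r = 0.999), a readthrough model whose reads can be shared with its component genes, CHST11 (r = 0.997), a chondroitin sulfotransferase, and DUSP5 (r = 0.997), a phosphatase of ERK. All 3 rose with PMA, by 2.30, 1.70 and 2.31 on the log2 scale, and changed by 0.28, 0.24 and 0.21 with ConA. For CCN2 they were WIPI2 (r = 0.997), an autophagy protein, GSPT1 (r = 0.993), a translation release factor, and HK2 (r = 0.989), a hexokinase. Their changes had the same pair of signs at a smaller size, 0.44, 0.51 and 0.90 with PMA and -0.11, -0.12 and -0.17 with ConA. For ANKRD1 they were CASP4 (r = 0.995), an inflammatory caspase, PPP2R3C (r = 0.994), a regulatory subunit of PP2A, and TAF4B (r = 0.993), a subunit of TFIID. CASP4, PPP2R3C and TAF4B changed by 1.11, 0.53 and 1.05 with PMA and by 0.87, 0.36 and 0.85 with ConA.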

How the data were processed

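Polyadenylated RNA of HT1080 cells was sequenced in 12 libraries, and the authors deposited 1 table of normalized counts for each experiment. The deposited signal values give, for each gene symbol, a read count that the authors scaled by a library factor within each table. They are not divided by gene length and not on a log scale. The submitters' processing notes list Partek, STAR, Bowtie2 and DESeq2 and the builds hg19 and mm10, without roles, and the tables hold no coordinates. Under the best factor per library, 80.2% to 82.6% of the values between 5 and 60 were whole within 0.02 reads, so whole reads were not recovered and tests for counts were not run. Errors come from the 3 libraries of a group, at the depth given above. Columns of no known sample numbered 0.

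Values were put on the log2(value + 1) scale, genes whose mean was under 10 normalized counts were dropped, and limma 3.58.1 in R 4.3.3 was fitted to the 6 libraries of each table (moderated variances with a trend over the level, Benjamini-Hochberg over all genes). The difference between the changes was fitted over all 12 libraries with 4 group means. Every test is two-sided. The limma script was checked on simulated data. The members and lists were chosen with earlier results of these data known. Named were all 10 members, the called genes of each list (at most 3 per agent, by size of change) and the 3 most alike genes of CCN1, CCN2 and ANKRD1. Alternatives covered pseudocounts of 0.1 and 10, no filter, a minimum mean of 50, quantile normalization, equal totals, no variance trend, an adjusted p of 0.05, one fit of all libraries, a replicate block and leaving out each library. Exon lengths came from GENCODE 29 and promoter windows from RefSeq. The control and PMA libraries with the same number were not paired: their deviations from the group means correlated at -0.064, 0.096 and 0.096. Python 3.11.15 with pandas 2.3.3, numpy 2.4.6 and matplotlib 3.10.9 made the rest.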

Additional observations from a re-analysis of the deposited data

Results flagged for a closer look

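The changes of CCN1 and CCN2 differed between the experiments by the test of the difference itself (limma over 12 libraries). The change with PMA minus that with ConA was 1.07 for CCN1 and 1.59 for CCN2 on the log2 scale. CCN1 was higher in 3 of 3 PMA libraries and in 3 of 3 ConA libraries than in every control of the same table, while CCN2 was higher in 3 of 3 PMA libraries and lower in 3 of 3 ConA libraries. Of all genes, 34.8% lay wholly above the controls with PMA, and 34.9% above and 34.4% below with ConA. The rise of CCN1 with ConA was 1.09-fold, with an adjusted p of 0.0511 in limma. Agent and experiment cannot be told apart in this design.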

How the results depend on the processing

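Of 510 values of single members under another setting, 502 kept their direction and their side of the call rule. This count does not cover the adjusted p of 0.05, by which genes are said to have risen or fallen. Under some settings the side of 0.05 changed for CCN1, AJUBA and AMOTL1 with ConA and for TEAD1 with PMA. It also changed for the differences of AMOTL2, YAP1 and AXL. The number of members called with PMA was 2 in place of 3 without the variance trend (CCN2, adjusted p = 5.13e-04 in limma). The number of members called with ConA was 2 in place of 1 with equal library totals (AMOTL2, 1.00). The number called for the difference between the changes was 1 in place of 2 after quantile normalization and 1 with equal totals (CCN1, 0.76 and 0.88). The sign turned for AMOTL1 with ConA under equal totals (0.022), and it ranged from -0.13 to 0.0035 when single libraries were left out. It also turned for the AXL difference after quantile normalization (-0.095) and with equal totals (-0.092). Equal totals moved the median of all genes to -0.12 with PMA and to -0.20 for the difference, which lowers the changes there by about that much. With ConA the median moved to 0.064, which raises the changes with ConA. Without the variance trend, 867 in place of 1310 genes were called with PMA and 662 in place of 1318 with ConA, and 76.4% in place of 66.9% of the ConA calls were higher. Leaving out single libraries kept the number of members past the adjusted p of 0.05 in limma, in either direction, at 9 to 10 with PMA, 7 to 9 with ConA and 8 to 9 for the difference. In the main fits 32.8% of all genes passed higher and 30.5% lower with PMA, and 32.8% and 32.5% with ConA. For the difference the shares were 30.4% and 30.7%, so most genes passed this rule. The quantile and equal-total settings of the counts at an adjusted p of 0.05 were chosen after seeing the data.

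With the replicate number as a block, 3 members were called with PMA and 9 passed the adjusted p of 0.05 in limma, as without it, and 1264 in place of 1310 of all 15153 genes were called. Without the block, 32.8% of all genes passed that adjusted p higher and 30.5% lower. No paired analysis was possible for ConA because its treated libraries (1 to 3) and controls (4 to 6) share no number. Depth did not limit these genes, whose lowest value in any library was 943.6 normalized counts.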
